A study of Mus musculus with 12 samples.

Results

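The nuclear genes of the mitochondrial respiratory chain were followed on 12 Illumina bead arrays of mouse ear tissue. Members were all probes whose annotated gene symbol began with Nduf followed by a, b, c, s or v and a digit, was an Sdh subunit, or began with Uqcr, Cox and a digit between 4 and 8, or Atp5. This gave 107 probes of 74 genes, out of 45281 probes on each array. Complex I had 49 probes of 34 genes, complex II 5 of 3, complex III 9 of 7, complex IV 18 of 14 and complex V 26 of 16. The 4 groups, with 3 arrays each, were LG/J ear tissue around an ear punch 7 days after injury, uninjured LG/J ear, SM/J tissue around the punch at day 7, and uninjured SM/J ear. LG/J and SM/J are inbred strains, and LG/J closes ear holes well while SM/J closes them poorly. The labels give no other treatment, no age and no sex, and do not say whether the arrays of a group came from separate animals, so every p-value measures the spread between these samples.

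The respiratory chain passes electrons from NADH and succinate to oxygen and uses the protons pumped on the way to make ATP. Complex I takes electrons from NADH, complex II from succinate, complex III hands them to cytochrome c, complex IV reduces oxygen, and complex V is the ATP synthase. Most subunits are nuclear encoded, and several complex IV subunits have alternative forms that are used in heart, skeletal muscle, lung or testis. The symbol rule also caught Ndufs5-ps, a pseudogene, Ndufa4, now counted as a complex IV subunit, and Cox7a2l, which helps complexes III and IV join into supercomplexes. Complexes were assigned by symbol here, so Ndufa4 and Ndufs5-ps stand in the counts of complex I and Cox7a2l in those of complex IV.

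All 107 probes passed the filter on dim signal that left 33960 of 45281 probes. Levels are normalized log2 intensities and are compared only within a probe. A background limit estimated from each array lay between 5.75 and 5.83 on this scale. On all 12 arrays 100 member probes exceeded it, and the other 7 did so on some arrays. Median raw intensity per array was between 95.91 and 118. A pair of uninjured arrays stood apart. Of the 37 member probes called between the strains at day 7, LG/J uninjured replicate 4 lay beyond all 3 uninjured SM/J arrays, on the LG/J side, for 28 (75.7%), and LG/J uninjured replicates 1 and 3 each did so for 37. Over all 8541 probes called in that comparison, the shares were 57.9% for replicate 4, 87.9% for replicate 1 and 88.1% for replicate 3. SM/J uninjured replicate 2 had a mean level of 12.83 over 13 skeletal muscle marker genes, against 11.62 and 11.79 for SM/J uninjured replicates 4 and 5. It also lay nearer to LG/J than those replicates on Cox6b1 probe ILMN_1254971 (13.82, against 13.33 and 13.28) and Cox7a2l (12.63, against 13.11 and 13.20). On Ndufa5 probe ILMN_1216007 it lay further from LG/J (13.17, against 12.87 and 12.86). Its position over all member probes was not counted. Values without 1 or both of these arrays are given beside several results. In whole tissue, fewer cells of a type and less RNA per cell cannot be told apart.

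Injury moved few respiratory chain probes in either strain. A probe was called at an adjusted p under 0.05 over all probes tested. In LG/J, 1 member probe was higher and 1 lower at day 7, which is 1.87% of 107, beside 9.04% of all probes tested (4.81% higher and 4.23% lower). In SM/J, 2 were higher and 2 lower, or 3.74%, beside 9.39% of all probes (5.17% higher and 4.21% lower). The median log2 change of the members was -0.01 in LG/J and 0.02 in SM/J, with -0.01 and -0.02 over all probes. Calls in complexes I, II and III together amounted to a single probe, of Ndufc2 in SM/J. These small counts depend on the arrays used. With the pair of uninjured arrays that stood apart left out, 10 members were called in LG/J (5 higher and 5 lower), beside 13.2% of all probes, and 17 in SM/J (13 higher and 4 lower), beside 22.4%.

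**Figure D1:**
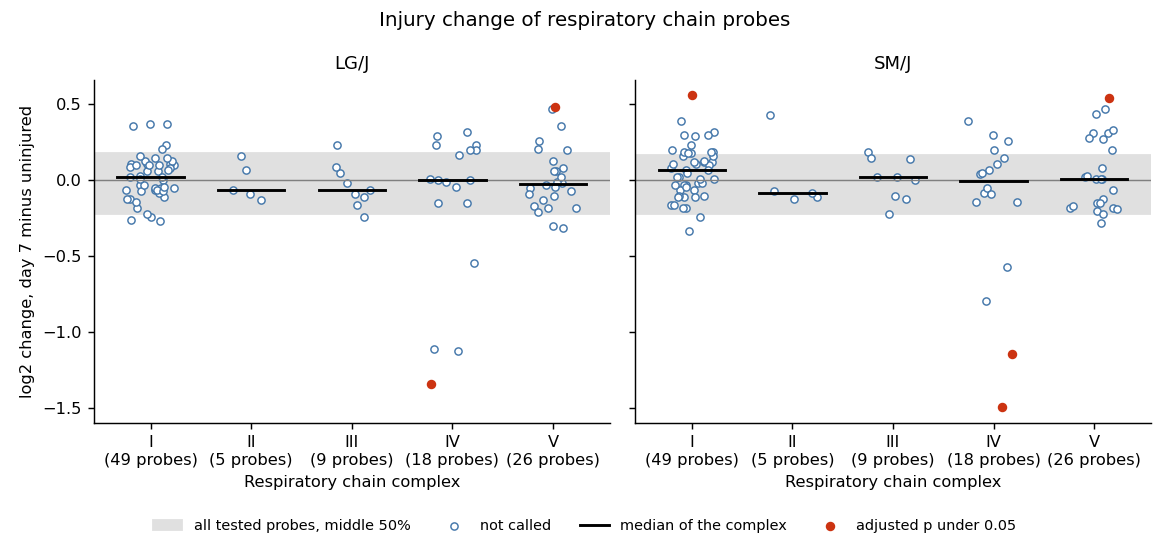
Log2 change, day 7 minus uninjured, of each of the 107 member probes by complex, in LG/J on the left and SM/J on the right. Filled red points are called, black bars are medians of a complex and the grey band holds the middle 50% of all tested probes. Most points lie in or near the band, and those furthest below it belong to complex IV.

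The largest falls were in complex IV, in tissue-specific forms. Cox4i2, the form of subunit 4 known from lung and from cells at low oxygen, had levels of 7.57, 7.28 and 7.51 at day 7 in SM/J, against 9.20, 8.70 and 8.93 in uninjured SM/J ear. The day 7 arrays all lay below the uninjured ones, and the log2 change was -1.49 ± 0.20 (SE, adjusted p = 0.000357). In LG/J the levels of Cox4i2 were 8.47, 8.97 and 8.76 at day 7, against 9.61, 9.32 and 8.89 in uninjured ear. These groups overlapped and the change, -0.54 ± 0.20, was not called (adjusted p = 0.112), but it was called without LG/J uninjured replicate 4, at -0.74 (adjusted p = 0.0236). The difference between the changes of the strains was 0.95 ± 0.28 for Cox4i2, with an adjusted p of 0.198, so a difference in response between the strains was not shown. Cox4i1, the general form of the subunit, changed by -0.04 ± 0.11 in LG/J and 0.04 ± 0.11 in SM/J, and neither was called. Over 9 adipocyte marker probes, 4 were lower in LG/J and 8 in SM/J at day 7. The mean level of these marker genes was 7.98, 7.81 and 7.81 at day 7 in SM/J, against 8.71, 9.22 and 9.32 in uninjured SM/J ear, and the part of adipocytes in the Cox4i2 result was not tested.

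The muscle forms Cox7a1, Cox6a2 and Cox8b take the place of Cox7a2, Cox6a1 and Cox8a in heart and skeletal muscle. The promoters of 2 muscle forms and 2 general forms are shown, since these forms are paralogs with separate promoters and the muscle forms had the larger changes after injury. Each line is the 250 bases before the annotated start, 5′ to 3′ on the gene's strand, from RefSeq (GRCm38.p6). Cox7a1 is at chr7:30183921-30184170 on the plus strand, Cox8b at chr7:140900447-140900696 on the minus strand, Cox7a2 at chr9:79759854-79760103 on the minus strand and Cox6a1 at chr5:115348959-115349208 on the minus strand. Capitals mark matches to the motifs searched on both strands, which were an NRF-1 half-site (TGCGCA), ETS (CCGGAAG), YY1 (AAGATGGCG), the E-box CAGCTG and TATAAA. The half-site took the place of a longer NRF-1 motif after a first search.
Cox7a1: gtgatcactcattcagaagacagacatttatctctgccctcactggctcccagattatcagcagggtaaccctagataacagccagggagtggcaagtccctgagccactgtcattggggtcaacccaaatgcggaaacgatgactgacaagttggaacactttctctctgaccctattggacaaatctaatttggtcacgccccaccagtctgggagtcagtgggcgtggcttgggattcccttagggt
Cox8b: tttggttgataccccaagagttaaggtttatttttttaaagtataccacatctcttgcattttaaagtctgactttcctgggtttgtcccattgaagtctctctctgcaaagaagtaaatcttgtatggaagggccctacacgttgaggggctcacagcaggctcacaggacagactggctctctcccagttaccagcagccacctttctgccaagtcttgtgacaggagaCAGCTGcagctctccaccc
Cox7a2: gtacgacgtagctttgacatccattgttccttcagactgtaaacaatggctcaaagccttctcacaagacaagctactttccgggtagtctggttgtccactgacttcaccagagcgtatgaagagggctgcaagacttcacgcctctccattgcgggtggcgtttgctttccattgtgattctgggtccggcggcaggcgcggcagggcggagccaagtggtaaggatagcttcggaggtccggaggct
Cox6a1: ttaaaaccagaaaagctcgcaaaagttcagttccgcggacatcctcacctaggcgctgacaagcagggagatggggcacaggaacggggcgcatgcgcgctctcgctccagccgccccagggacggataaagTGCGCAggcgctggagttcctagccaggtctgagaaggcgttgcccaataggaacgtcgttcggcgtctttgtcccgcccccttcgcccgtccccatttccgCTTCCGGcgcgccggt
Cox6a1 held an NRF-1 half-site and an ETS match on the opposite strand, Cox8b an E-box, and Cox7a1 and Cox7a2 none of the 5 motifs. Longer forms of the NRF-1 motif were not marked, such as gcgcatgcgc in the Cox6a1 window. No matches in these windows overlapped. Windows were found for 62 of the 74 genes, 67 windows in all. The NRF-1 half-site was in 19.4% of these windows and in 6.43% of the 32851 windows of all genes. The ETS letters were in 17.9% of member windows and 6.91% of all, and the E-box in 7.46% and 13.0%. YY1 was in 1.49% and 0.606%, and TATAAA in 10.4% and 12.4%. Median GC content was 56.4% in member windows and 52.4% in all windows, and its part in these shares was not tested. Since the half-site was chosen after a first search, its share is a description only. A match describes the letters and is not a binding site.

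Cox7a1 had levels of 10.45, 10.35 and 10.63 at day 7 in LG/J, against 11.70, 12.13 and 11.61 in uninjured LG/J ear. The groups did not overlap, and the log2 change was -1.34 ± 0.33 (adjusted p = 0.0211). In SM/J its levels were 9.89, 9.64 and 9.61 at day 7, against 11.91, 10.32 and 10.34 in uninjured ear. Again the groups did not overlap, with a change of -1.14 ± 0.33 (adjusted p = 0.0437), and the highest uninjured array was SM/J replicate 2. Without that array the SM/J change of Cox7a1 was -0.62 ± 0.17 (adjusted p = 0.0431). The Cox7a1 call in LG/J was lost when LG/J uninjured replicate 3 (adjusted p = 0.0673) or any LG/J day 7 array was left out (0.0515 to 0.0761). In SM/J the Cox7a1 call was lost without any 1 of the day 7 arrays of either strain (0.0602 to 0.118) or without LG/J uninjured replicate 1 (0.0509).

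Cox6a2 and Cox8b were not called. Cox6a2 levels were 12.17, 12.29 and 12.42 at day 7 in LG/J, against 13.17, 13.80 and 13.27 in uninjured LG/J ear, with a log2 change of -1.12 ± 0.39 (adjusted p = 0.0987). In SM/J they were 11.82, 11.77 and 11.51 at day 7, against 13.57, 11.50 and 11.74 in uninjured ear, where replicate 2 alone was high. Cox8b changed by -1.11 ± 0.33 in LG/J (adjusted p = 0.053) and -0.79 ± 0.33 in SM/J (adjusted p = 0.165). Without SM/J uninjured replicate 2, the array with the high muscle markers, the LG/J changes of Cox6a2 (-1.12, adjusted p = 0.00167) and Cox8b (-1.12, adjusted p = 0.000589) were called. Without it the SM/J changes were 0.08 ± 0.19 for Cox6a2 (-0.57 ± 0.39 with all arrays) and -0.24 ± 0.16 for Cox8b, neither called. With that array and LG/J uninjured replicate 4 left out, the changes of the strains differed for Cox6a2 by -1.27 (adjusted p = 0.0124), for Cox7a1 by -0.83 (adjusted p = 0.041) and for Cox8b by -0.98 (adjusted p = 0.013).

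In LG/J the muscle forms and the muscle markers both had lower means at day 7, and in SM/J both were highest on uninjured replicate 2. Without that array the forms parted in SM/J, where Cox7a1 was still called lower and Cox6a2 and Cox8b were not. The mean over 13 skeletal muscle marker genes was 11.8, 11.73 and 12.09 at day 7 in LG/J, against 12.58, 13.24 and 12.89 in uninjured LG/J ear. In SM/J it was 11.63, 11.56 and 11.44 at day 7, against 12.83, 11.62 and 11.79 in uninjured ear. Of 19 muscle marker probes, 10 were lower at day 7 in LG/J (median -0.98) and 1 in SM/J (median -0.56). The part of muscle content in the results for the muscle forms was not tested. Of the general forms, Cox7a2 changed by 0.29 ± 0.23 in LG/J and 0.11 ± 0.23 in SM/J, and the 2 probes of Cox6a1 by 0.17 and 0.23 in LG/J and -0.05 and -0.08 in SM/J, none of them called.

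**Figure D2:**
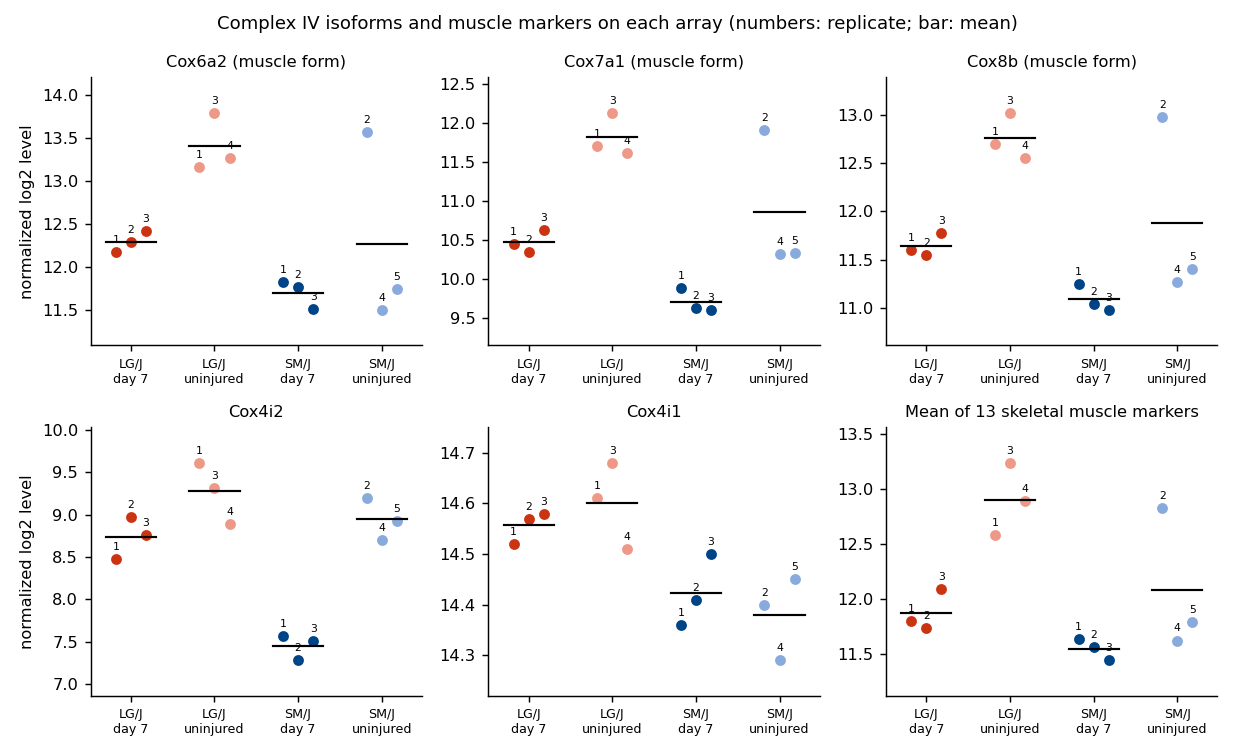
Normalized log2 level on each of the 12 arrays for Cox6a2, Cox7a1, Cox8b, Cox4i2, Cox4i1 and the mean of 13 skeletal muscle markers, by group, with replicate numbers and group means as bars; each panel has its own axis. SM/J uninjured replicate 2 is high for the 3 muscle forms and for the muscle markers, and Cox4i2 is low on the 3 SM/J day 7 arrays.

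The called rises were small. Atp5g2, which encodes subunit c of the ATP synthase ring, had levels of 11.17, 11.06 and 11.07 at day 7 in LG/J, against 10.69, 10.79 and 10.36 in uninjured ear, a change of 0.48 ± 0.14 (adjusted p = 0.0468). In SM/J its change was 0.44 ± 0.14 and was not called (adjusted p = 0.0669). The Ndufc2 probe ILMN_1251341, for an accessory subunit of complex I, read 7.63, 7.60 and 7.26 at day 7 in SM/J, against 6.99, 6.99 and 6.84 in uninjured SM/J ear (0.56 ± 0.14, adjusted p = 0.0249). The brighter Ndufc2 probe changed by 0.05 ± 0.22. Atp5k, subunit e of the ATP synthase, rose by 0.54 ± 0.13 in SM/J on probe ILMN_1214830 (adjusted p = 0.0183), with 10.93, 10.89 and 11.08 at day 7 against 10.52, 10.51 and 10.27 in uninjured ear. Under scaling by array medians in place of quantile normalization, these 3 calls were lost (Atp5g2 0.31, Ndufc2 0.36 and Atp5k 0.27), while those of Cox4i2 in SM/J and Cox7a1 in both strains were not. The Atp5g2 call was also lost in 10 of the 12 fits that left out 1 array (adjusted p = 0.0558 to 0.151), with a change of 0.36 without LG/J uninjured replicate 4. The Ndufc2 call was lost in 4 of these 12 fits (0.0655 to 0.112), all of them without an SM/J array, and that of Atp5k in 3 (0.0542 to 0.0911). The call of Cox4i2 in SM/J was lost in 0 of the 12.

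No member was called for a difference between the injury changes of the strains (limma, 2 of 107 at an unadjusted p under 0.05), beside 0.345% of all probes tested. With the 2 arrays that stood apart left out, 6 member probes were called, beside 6.91% of all probes, and besides the 3 muscle forms these were Cox7a2l (0.69, adjusted p = 0.031) and 2 probes of Atp5pb (0.90 and 1.09).

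The other genes of the pathway were read from lists of their own. Of all probes tested, 9.04% were called after injury in LG/J and 9.39% in SM/J. In the same order, the shares were 0% and 4.84% for assembly factors and 14.8% and 0% for mitochondrial biogenesis. For the tricarboxylic acid cycle and pyruvate enzymes they were 6.67% and 13.3%. Of 62 probes of 40 assembly factors, none was called after injury in LG/J and 3 were higher in SM/J: both probes of Cox18, which inserts a complex IV subunit into the membrane (0.45 and 0.55), and Ttc19, a complex III factor (0.55). Of 30 probes for the tricarboxylic acid cycle and the pyruvate enzymes that feed it, 2 were lower in LG/J. These were the cycle gene Idh3a (-0.50) and Dlat (-0.66), of the pyruvate dehydrogenase complex. In SM/J 2 were higher, both of the cycle gene Dlst (0.65 and 0.67). The 2 lower ones were Dlat (-0.74) and Pcx (-0.76), for pyruvate carboxylase, neither of them a cycle enzyme. Of 27 probes for mitochondrial biogenesis, 3 were lower and 1 higher in LG/J, and none was called in SM/J. Perm1 (-1.35) and Ppargc1a (-1.14), regulators of mitochondrial genes in muscle and other tissues, and Gabpb1 (-0.69) were lower at day 7 in LG/J, and Pprc1 was higher (0.45). The Ppargc1a probe exceeded the background limit on 1 of the 3 LG/J day 7 arrays and on all 3 uninjured LG/J arrays.

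Between the strains, many member probes differed in both states. At day 7, 8 member probes were higher and 29 lower in LG/J than in SM/J, which is 34.6% of 107, beside 25.2% of all probes tested (13.1% higher and 12% lower). In uninjured ear, 9 were higher and 27 lower, or 33.6%, beside 21.6% of all probes (11% higher and 10.6% lower). The median log2 difference of the members was -0.16 at day 7 and -0.14 in uninjured ear, with 0.05 over all probes in both. Of the probes, 28 of 22 genes were called in both states, 22 lower and 6 higher in LG/J, and none in opposite directions. The members were bright, with 99 of 107 above the median level of the probes tested, and brighter probes were called more often. With the dimmest 50% of probes removed, 44 of 104 members were called at day 7, beside 36.6% of all probes. In uninjured ear 42 were called, beside 32.9%. The balance of lower against higher, and the margin over the share of all probes, depended on scaling. With array medians in place of quantile normalization, 15 were higher and 10 lower at day 7, beside 21.6% of all probes called. In uninjured ear 12 were higher and 12 lower, beside 19.8%. The member totals were then 25 and 24 of 107. The member medians were 0.10 at day 7 and 0.08 in uninjured ear, with 0.08 over all probes in both. Of the calls made with quantile normalization, 18 of 37 were called again at day 7 and 19 of 36 in uninjured ear. Lower calls were lost more often. At day 7, 8 of 8 higher and 10 of 29 lower calls were kept, and in uninjured ear 7 of 9 higher and 12 of 27 lower. The calls of Ndufb9, Sdhd and the brighter Sdhb probes were lost in both states. Single arrays also moved the counts. The share of all probes called moved with them. Without LG/J uninjured replicate 4 the uninjured count was 56, beside 35.5% of all probes. Without LG/J uninjured replicate 1 or 3 or SM/J uninjured replicate 4 or 5 it was 13, 14, 15 and 16 in that order, beside 10.2% to 11.3% of all probes. At day 7 it was 22, 20, 21 and 23 without LG/J replicate 1, LG/J replicate 2, SM/J replicate 1 and SM/J replicate 2, beside 14.1% to 16.5%.

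**Figure D3:**
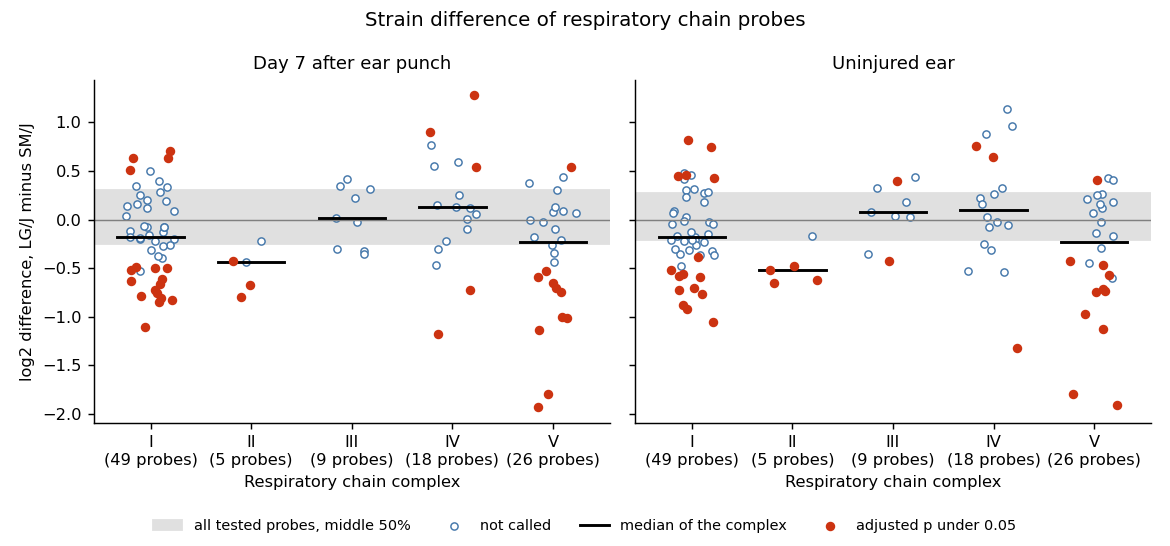
Log2 difference, LG/J minus SM/J, of each of the 107 member probes by complex, at day 7 on the left and in uninjured ear on the right. Filled red points are called, black bars are medians of a complex and the grey band holds the middle 50% of all tested probes. Called points lie on both sides of 0 in complexes I, IV and V, and those of complex II lie below it.

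In complex I, 4 probes were higher and 14 lower in LG/J at day 7 (36.7%), and 5 higher and 11 lower in uninjured ear (32.7%). All probes tested gave 25.2% and 21.6%. The complex I counts include Ndufa4, which was lower in uninjured ear (-0.52 ± 0.14, adjusted p = 0.0208). At day 7 Ndufa4 was not called (-0.40 ± 0.14, adjusted p = 0.0588). Ndufa5, an accessory subunit, was lower on both probes. Its probe ILMN_2691460 read 9.46, 9.03 and 9.63 at day 7 in LG/J, against 10.74, 10.55 and 10.15 at day 7 in SM/J, and 9.35, 9.16 and 9.20 in uninjured LG/J ear, against 10.55, 10.21 and 10.11 in uninjured SM/J ear. The groups did not overlap in either state, and the differences were -1.11 ± 0.19 at day 7 (adjusted p = 0.0014) and -1.05 ± 0.19 in uninjured ear (adjusted p = 0.0022). Ndufb9, an accessory subunit of the membrane arm, was lower by similar amounts in both states (-0.81 ± 0.15 at day 7 and -0.77 ± 0.15 in uninjured ear). Ndufb5 and Ndufs3, a core subunit of the matrix arm, were also lower in both states. Ndufc2 was lower on its brighter probe in both states (-0.83 ± 0.22 at day 7 and -0.92 ± 0.22 in uninjured ear). Its dimmer probe ILMN_1251341 was lower at day 7 (-0.85 ± 0.14) and not called in uninjured ear (-0.21). Ndufa13 was higher in both states (0.51 and 0.46), and the core subunits Ndufv1 (0.43) and Ndufs7 (0.45) were higher in uninjured ear. The pseudogene probe Ndufs5-ps was not called in any comparison.

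Complex II was represented by Sdhb, the iron-sulphur subunit, and by Sdhc and Sdhd, which anchor the complex in the membrane. All 5 probes had lower means in LG/J in both states, and 3 were called at day 7 and 4 in uninjured ear. Under median scaling none of the 5 was called at day 7 and the dimmest Sdhb probe alone in uninjured ear, and Sdhc turned to 0.11 at day 7 and 0.13 in uninjured ear. Sdhd read 9.29, 8.92 and 9.41 at day 7 in LG/J, against 10.27, 9.92 and 9.81 in SM/J, with no overlap and a difference of -0.80 ± 0.16 (adjusted p = 0.0047). In uninjured ear its difference was -0.52 ± 0.16 (adjusted p = 0.0374). The brighter probes of Sdhb, ILMN_2769064 and ILMN_2769065, differed by -0.67 and -0.43 at day 7 and -0.65 and -0.48 in uninjured ear. The dimmest Sdhb probe was below the background limit on all 3 uninjured LG/J arrays (mean 5.56) and had a mean of 6.18 in uninjured SM/J ear, at least 1.31-fold higher in SM/J (adjusted p = 0.0379). Sdhc, at -0.22 ± 0.11 and -0.17 ± 0.11, was not called. Of the complex II assembly factors, Sdhaf1 was lower in LG/J with log2 differences of -1.70 ± 0.14 at day 7 and -1.64 ± 0.14 in uninjured ear.

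In complex III, none of 9 probes was called at day 7 (limma, 5 at an unadjusted p under 0.05), and 1 was higher and 1 lower in LG/J in uninjured ear. Those called were Uqcr10 (0.40 ± 0.12) and Uqcrh (-0.43 ± 0.13), both small subunits. In complex IV, 3 were higher and 2 lower at day 7, and 2 higher and 1 lower in uninjured ear. Cox7a2l read 11.67, 11.65 and 11.66 at day 7 in LG/J, against 12.83, 12.85 and 12.85 in SM/J, a difference of -1.18 ± 0.26 (adjusted p = 0.00625). In uninjured ear it read 11.12, 11.44 and 12.42 in LG/J, against 12.63, 13.11 and 13.20 in SM/J (-1.32 ± 0.26, adjusted p = 0.00364), and the LG/J array nearest to SM/J was replicate 4. Cox4i2 was higher in LG/J at day 7 by 1.28 ± 0.20 (adjusted p = 0.000696), with 0.33 ± 0.20 in uninjured ear (adjusted p = 0.261, and 0.0391 without LG/J uninjured replicate 4). Beside it, 6 of 9 adipocyte marker probes were higher in LG/J at day 7 and 1 of 9 in uninjured ear, and their part in the Cox4i2 difference was not tested. Cox6b2, the testis form of subunit 6b, was higher in both states on its brighter probe (0.90 and 0.76). In SM/J that probe read 5.98 to 6.39, not far above the background limit. The dimmer Cox6b2 probe, above the limit on 7 of 12 arrays, was not called (-0.10 at day 7 and 0.26 in uninjured ear). Cox7b was lower at day 7 (-0.73 ± 0.19). The muscle forms were not called between the strains, but without SM/J uninjured replicate 2 the uninjured differences of Cox6a2 (1.79), Cox7a1 (1.49) and Cox8b (1.42) were, and 7 of 19 muscle marker probes were higher in uninjured LG/J ear with all arrays.

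In complex V, 1 probe was higher and 10 lower in LG/J in each state. Atp5b, the catalytic beta subunit, was the higher one, with 15.12, 15.18 and 15.01 at day 7 in LG/J, against 14.45, 14.56 and 14.70 in SM/J (0.54 ± 0.13, adjusted p = 0.0095), and 0.41 ± 0.13 in uninjured ear (adjusted p = 0.0351). Atp5e, the epsilon subunit of the central stalk, read 8.61, 8.35 and 8.89 at day 7 in LG/J, against 9.87, 9.80 and 9.59 in SM/J. The groups were apart in both states, with differences of -1.14 ± 0.18 at day 7 (adjusted p = 0.000789) and -1.13 ± 0.18 in uninjured ear (adjusted p = 0.000944). Atp5j, part of the peripheral stalk, was lower on both probes in both states (log2 differences on ILMN_2962632 of -0.53 at day 7 and -0.71 in uninjured ear). Atp5l, a membrane subunit, was lower on probe ILMN_2973897 in both states (-0.70 and -0.75).

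Genes with more than 1 probe showed that the strain difference depended on the probe. Of the 74 genes, 26 had more than 1 probe, giving 42 pairs. For 26 pairs of 16 genes, or 61.9%, the probes differed in their strain difference, beside 44.3% of the 13933 pairs of 1 gene in the whole table. The median absolute difference was 0.48 for the member pairs and 0.35 for all. Where both probes exceeded the background limit on all 12 arrays, 22 of 34 pairs were called, and the share of all pairs was not computed there. With the dimmest 50% of probes removed, 27 of 38 member pairs were called, beside 49.7% of all pairs. No probe sequence was used here, so which transcript, relative or strain variant a probe reads was not tested.

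Atp5pb, subunit b of the peripheral stalk, had the widest spread. Probe ILMN_1249817 read 10.07, 9.87 and 10.07 at day 7 in LG/J, against 11.85, 11.81 and 11.76 in SM/J, and 9.33, 9.57 and 11.65 in uninjured LG/J ear, against 11.64, 12.05 and 12.24 in uninjured SM/J ear. LG/J uninjured replicate 4, at 11.65, lay with the SM/J arrays. The strain difference of ILMN_1249817 was -1.80 ± 0.43 in both states, and that of ILMN_2790486 was -1.93 ± 0.50 at day 7 and -1.91 ± 0.50 in uninjured ear. Without LG/J uninjured replicate 4 the uninjured differences were -2.54 ± 0.17 and -2.77 ± 0.20 in that order. The other probes, ILMN_2717599 (-0.44 at day 7 and -0.17 in uninjured ear) and ILMN_2584887 (0.38 and 0.41), were not called. Averaged over both states, ILMN_1249817 differed from ILMN_2584887 in its strain difference by -2.19 ± 0.38 (adjusted p = 0.00117), while ILMN_1249817 and ILMN_2790486 were not called apart (0.13 ± 0.10, adjusted p = 0.34).

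**Figure D4:**
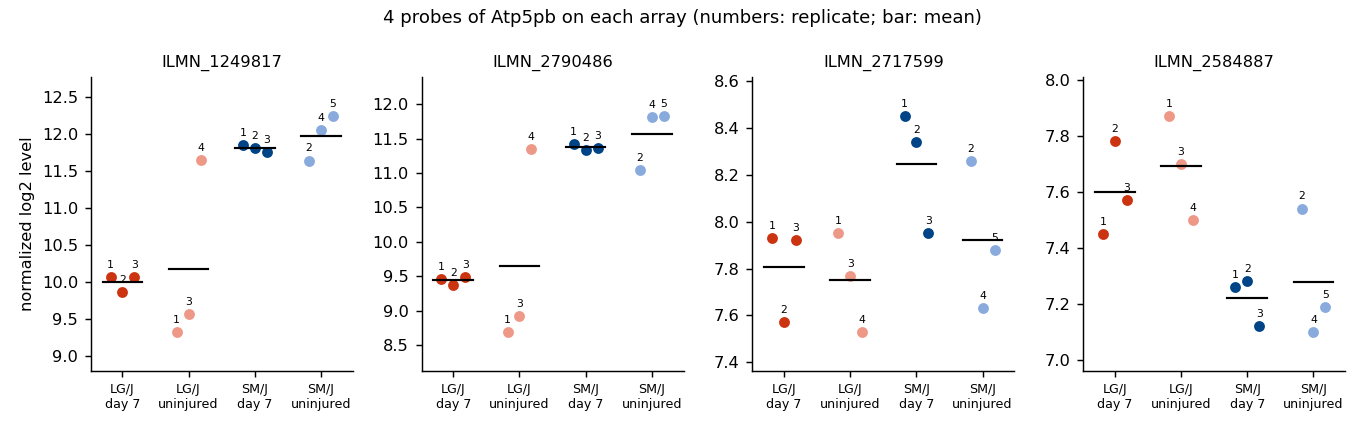
Normalized log2 level of each of 4 Atp5pb probes on the 12 arrays by group, with replicate numbers and group means as bars; each panel has its own axis. The probes ILMN_1249817 and ILMN_2790486 are low in LG/J except on uninjured replicate 4, and the other probes do not show this.

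Ndufv3, an accessory subunit near the NADH site of complex I, was the gene whose probes were called in opposite directions. At day 7, ILMN_2668977 and ILMN_3008277 were higher in LG/J by 0.71 ± 0.16 and 0.63 ± 0.17, and ILMN_2688822 was lower, at -0.63 ± 0.19 (adjusted p = 0.0295). The pair ILMN_2668977 and ILMN_2688822 differed by 1.26 ± 0.21 (adjusted p = 9e-04). Ndufs6 had the lowest p among the member pairs, with 0.40 and 0.48 on its brighter probe at day 7 and in uninjured ear, -0.50 and -0.48 on its dimmer one, and a difference of 0.93 ± 0.09 (adjusted p = 1.72e-05). The OSCP subunit gene Atp5o was lower in LG/J on ILMN_2917540 (-1.01 at day 7 and -0.74 in uninjured ear) and not called on ILMN_1247889 (0.13 and 0.21). Atp5a1, Atp5k, Cox5b, Cox6b1, Cox6b2, Ndufs4, Ndufb8, Ndufb10 and Ndufa8 also had called pairs. So did Atp5j (-0.62 and -0.98), Atp5l (-0.39 and -0.72) and Ndufa5 (-0.61 and -1.08). There both probes were lower in LG/J, averaged over both states, but by different amounts. Pairs of Uqcr10, Ndufa3, Sdhb, Ndufc1 and Ndufb6 were not called, and the probes of Uqcr10 differed by 0.02 ± 0.08.

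**Figure D5:**
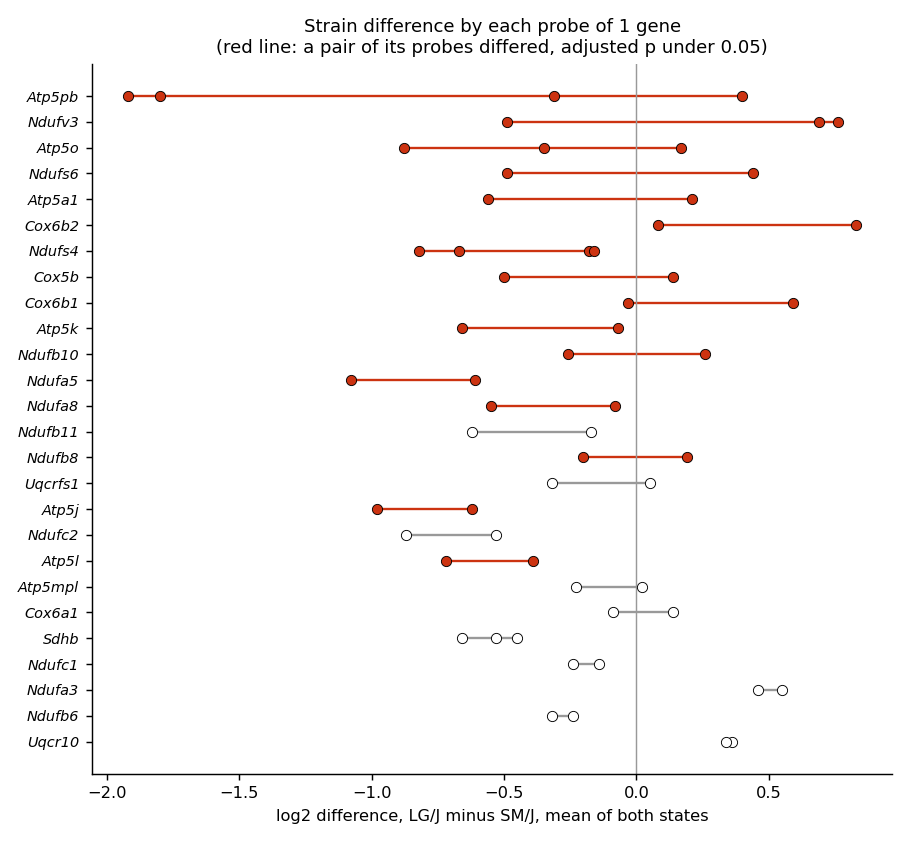
Log2 difference, LG/J minus SM/J, averaged over both states, for each probe of the 26 genes with more than 1 probe, 1 gene per row, ordered by the spread of its probes. Red marks genes with a pair called at an adjusted p under 0.05. Atp5pb has the widest spread and Uqcr10 the narrowest.

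The same strain comparison in the other pathway lists gave calls in both directions. Of 62 assembly factor probes, 7 were higher and 11 lower in LG/J at day 7, and 8 higher and 6 lower in uninjured ear. These calls were 29% of the list at day 7 and 22.6% in uninjured ear, beside 25.2% and 21.6% of all probes. Of 30 probes for the tricarboxylic acid cycle and pyruvate enzymes, 3 were higher and 9 lower at day 7 (40%). In uninjured ear 3 were higher and 5 lower (26.7%). Cs, which encodes citrate synthase, was higher in LG/J by 2.56 ± 0.12 in both states. Of 27 biogenesis probes, 2 were higher and 5 lower at day 7, and 3 higher and 5 lower in uninjured ear (25.9% and 29.6%). Tfam, the mitochondrial transcription factor, was lower on both probes in both states (-0.74 to -0.91).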

How the data were processed

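Per the labels, Trizol was used to extract total RNA from ear tissue, and the biotin label was read with streptavidin-Cy3. The submitters' processing notes name BeadStudio. The deposited value of each probe is an average signal intensity, with no sign of normalization between arrays. A second deposited table of 28845 probes holds the authors' normalized intensity values, by a method not given in the sources used here, and served as an alternative. Detection p-values and control probes were not used here.

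Intensities were background corrected by normexp (offset 16), converted to log2 and quantile normalized, and the dimmest 25% of probes removed. limma 3.58.1 in R 4.3.3 (statmod 1.5.0) fitted 1 mean per group to all 12 arrays, with Benjamini-Hochberg adjustment over 33960 probes in each of 5 comparisons. Each ± is a standard error from this fit (n = 3 arrays in each group). An exact permutation test of 3 against 3 cannot go below 0.1. Probe pairs of 1 gene were tested on their per-array difference, over 13933 pairs. Each probe stayed separate. The rule for naming probes took, per comparison and complex, up to 4 called each way by size or the lowest p. It also took all complex II genes, isoform genes, genes with called pairs and up to 3 called members of other lists. Not every probe under the rule is named, and some, such as those of Ndufb5, Ndufs3 and Ndufv1, were named outside it. The fit was tested on simulated data. The members and lists were chosen with earlier results of these data known. Symbols are those of the platform table, in which 23604 probes had 1 name. Replicate numbers were not used as pairs: correlations of same-numbered arrays ran from -0.088 to 0.264 over 10 pairs.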

Additional observations from a re-analysis of the deposited data

How the results depend on the processing

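Of 24 alternatives, 12 left out 1 array each. Over those 12, called members ran from 0 to 4 for injury in LG/J, 1 to 6 for injury in SM/J, 0 to 1 for the difference of the changes, 13 to 56 between strains in uninjured ear and 20 to 53 at day 7, and called probe pairs from 22 to 29. For injury the share of all probes called ran from 4.45% to 9.98% in LG/J and 4.93% to 17.6% in SM/J. For the difference of the changes it ran from 0.0442% to 1.46%. Between strains it ran from 10.2% to 35.5% in uninjured ear and 14.1% to 34.9% at day 7. The share of all pairs called ran from 36.6% to 53.7%. Estimated array weights, whose fit stopped before full convergence, gave 11, 14, 1, 69 and 57 in the same order. The shares of all probes called rose with them, to 17.7%, 24.6%, 4.78%, 45.6% and 39.2%. Leaving out a pair of uninjured arrays together (LG/J replicate 4, SM/J replicate 2), chosen after seeing the data, gave 10, 17, 6, 55 and 60. The shares of all probes there were 13.2%, 22.4%, 6.91%, 39% and 38.8%. There Cox7a2, at -0.03 with all arrays, was higher in uninjured LG/J ear (0.45, adjusted p = 0.0466), the single reversal among the named probes. For injury in LG/J, the count was 4 without background correction, 4 in the authors' normalized table, 4 with an intensity trend and 1 with no filter on dim probes. Median scaling gave 2 for injury in SM/J, beside 9.31% of all probes. A fit of only the groups compared gave 8 between strains in uninjured ear, beside 7.92%. With the replicate number as a block, the count was 5 for injury in LG/J, beside 8.12% of all probes. Between strains in uninjured ear it was 19, beside 11.2%, and every other count, with 26 probe pairs, stayed within 1.5 times. The cause of these shifts was not tested. With 3 arrays per group, precision is limited by their number, and 7 of 107 member probes lay near background.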
